A study of Mus musculus with 12 samples.

Results

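Fibrinogen and transthyretin are plasma proteins that hepatocytes make in bulk. Fibrinogen is built from the products of Fga, Fgb and Fgg, 3 neighbouring genes on mouse chromosome 3. Thrombin cuts it into the fibrin of a clot, and its genes are induced in the acute phase. Ttr, on chromosome 18, encodes transthyretin, a carrier of thyroid hormone and of retinol-binding protein. An antisense long noncoding RNA (lncRNA) is annotated on the strand opposite to a gene. A library that does not keep the strand counts the gene's own reads and the antisense reads together wherever the 2 overlap.

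The lncRNAs described here are the 21 of 15558 in the table that lie wholly inside a window at each locus, in mouse genome build mm9. The fibrinogen window on chromosome 3 holds 11 of them, from 82786040 to 82859103, and the Ttr window on chromosome 18 holds 10, from 20800155 to 20839538. The loci were chosen by their RPKM values in stranded against unstranded and in nuclear against whole-liver libraries, so both of those contrasts are given as descriptions without a test. Both loci are named after the protein genes known to lie there. Identifiers in the table carry no gene symbol, and no mm9 gene annotation was used here, so the position of each lncRNA relative to an exon or an intron is not given. In the GENCODE M21 annotation, of build GRCm38, Fgg, Fga and Ttr lie on the plus strand and Fgb on the minus strand.

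All livers came from CD-1 mice aged 8 weeks, an outbred stock with no engineered allele named in the labels. The mice had been injected with TCPOBOP, which activates the nuclear receptor CAR, or with PCN, which activates PXR. Doses are not given in the labels. The experiment coded G81 gave male libraries: 4 strand-specific whole-liver libraries of 6 livers each (TCPOBOP or PCN, 3 h or 6 h), 1 unstranded whole-liver library of 6 livers (TCPOBOP, 3 h) and 1 unstranded nuclear library of 2 livers (PCN, 3 h). Nuclear RNA 3 h after TCPOBOP came from 3 female pools of 3, 4 and 4 livers (experiment G86) and from 3 male pools of 4 livers each (experiment G95), all unstranded. RNA was selected for poly(A) in every library. Mice given vehicle were not analysed here, so no level can be read as an induction or a repression by either agonist.

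Values are RPKM, the reads of a lncRNA scaled by its length and by the depth of the library. Stranded libraries held 25168724 to 27848919 reads in all and unstranded ones 7314289 to 40291718. The male nuclear pools were the shallowest, at 7314289 to 11897587 reads. A count of 0 allows up to 3 reads, and every interval on reads is a 95% Poisson or exact interval that covers counting error only. The share of reads on lncRNAs was 0.794% to 0.918% with strand and 3.78% to 5.09% without. Markers of liver cell types could not be checked, since 0 of 18 marker symbols and 0 of 32 symbols of coagulation and plasma-protein genes match an identifier in the table. In bulk RNA, fewer cells of a type and less RNA per cell cannot be told apart.

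Of the 21 lncRNAs, 19 were intergenic and 2 were antisense. At the fibrinogen locus the antisense ncRNA_as_chr3_2485 spans 82828269 to 82835160 on the minus strand. Its recovered length was 5174 bases of a span of 6892, so part of the span was not counted. Of the 10 intergenic lncRNAs there, 7 are on the minus strand, 1 on the plus strand and 2 have no strand given. The plus-strand one, ncRNA_inter_chr3_2487 (82843456 to 82844849), overlaps the minus-strand ncRNA_inter_chr3_2486 by 491 bases. At the Ttr locus the antisense ncRNA_as_chr18_14332 (20823918 to 20832247) is on the minus strand, opposite to the strand of Ttr. Of the 9 intergenic lncRNAs there, 8 are on the plus strand. The nearest, ncRNA_inter_chr18_14331 (20822890 to 20823449), ends 468 bases before the antisense lncRNA starts.

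Both loci held a few lncRNAs with high values among many with few reads. The 4 lncRNAs with a mean of at least 1 RPKM over the 8 unstranded libraries were the 2 antisense ones, ncRNA_inter_chr3_2487 and ncRNA_inter_chr18_14331. None of the 21 reached a mean of 1 RPKM over the 4 stranded libraries. The other 9 at the fibrinogen locus ranged from 0 to 0.216 RPKM in stranded libraries and from 0 to 1.75 RPKM in unstranded ones. The other 8 at the Ttr locus ranged from 0 to 0.155 RPKM and from 0 to 1.11 RPKM. ncRNA_inter_chr3_2479 and ncRNA_inter_chr18_14333 had 0 reads in all 12 libraries, and ncRNA_inter_chr18_14334 had 1 read in 1 female pool. The nearest lncRNAs outside the windows were low too: their highest values were 0 RPKM (ncRNA_inter_chr3_2477) and 0.191 RPKM (ncRNA_inter_chr3_2489) at the fibrinogen side, and 0.124 RPKM (ncRNA_inter_chr18_14324) and 0.317 RPKM (ncRNA_inter_chr18_14335) at the Ttr side.

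**Figure D1:**
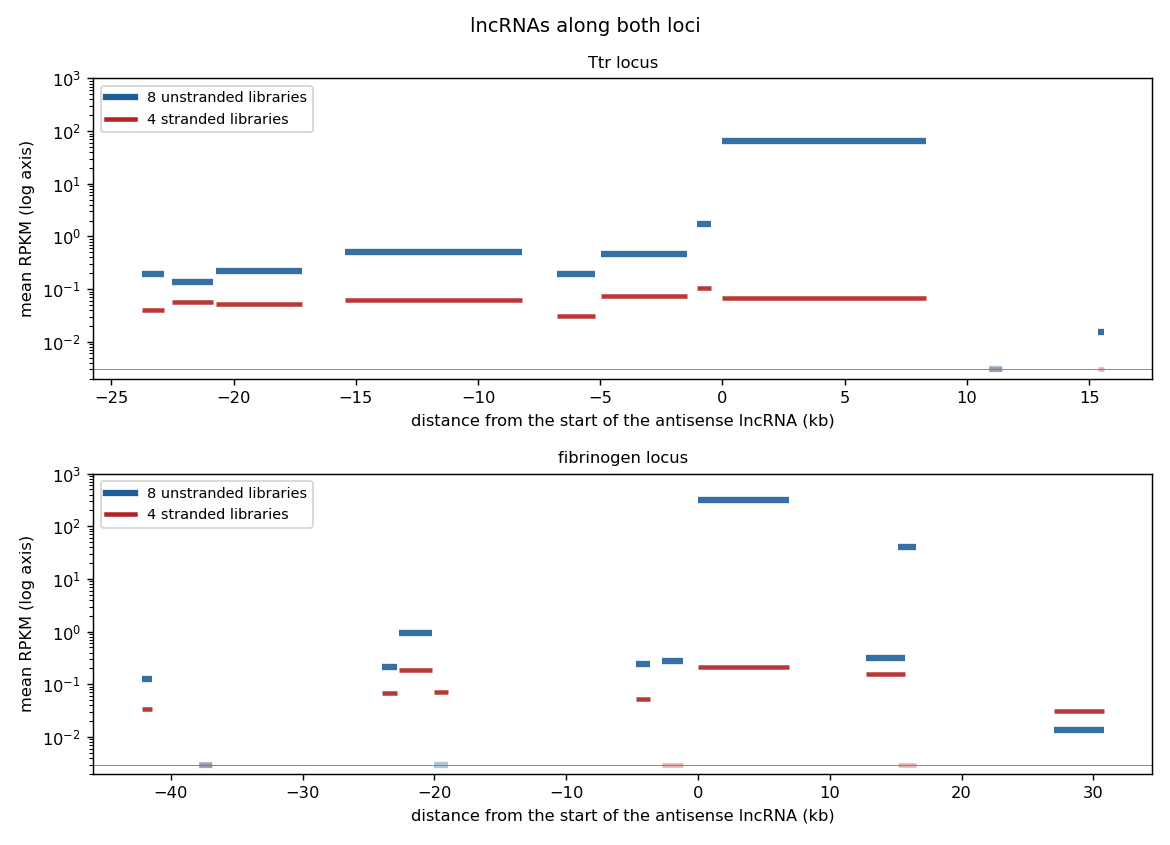
Mean RPKM (log axis) of each lncRNA along the Ttr locus (above) and the fibrinogen locus (below), against distance in kilobases from the start of the antisense lncRNA, for the 8 unstranded libraries (thick bars) and the 4 stranded libraries (thin bars). Means of 0 lie faded on the grey line at the bottom. The antisense lncRNA at each locus and ncRNA_inter_chr3_2487 stand far above their neighbours in the unstranded means (316, 65.4 and 40.5 RPKM) and not in the stranded ones.

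The antisense lncRNA at the fibrinogen locus was among the most abundant entries of the table without strand information and had 9 to 49 reads with it. In whole liver 3 h after TCPOBOP, ncRNA_as_chr3_2485 had 132 RPKM in the unstranded library (27514 reads) and 0.368 RPKM in the stranded one (49 reads). The stranded values in the other whole-liver libraries were 0.291 RPKM (TCPOBOP, 6 h), 0.120 RPKM (PCN, 3 h) and 0.0691 RPKM (PCN, 6 h). All 4 stranded values lay far below all 8 unstranded ones. Its rank among the 15558 lncRNAs was 4 to 10 in the unstranded libraries and 735 to 2632 in the stranded ones. It took 0.0683% to 0.204% of all reads in the unstranded libraries.

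In nuclear RNA ncRNA_as_chr3_2485 had 229 RPKM after PCN, 358, 392 and 374 RPKM in the female TCPOBOP pools, and 362, 288 and 395 RPKM in the male TCPOBOP pools. The PCN library was the lowest nuclear value, and the female and male ranges overlapped.

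The antisense lncRNA at the Ttr locus was also far higher without strand information, at a lower level. In whole liver 3 h after TCPOBOP, ncRNA_as_chr18_14332 had 14.5 RPKM without strand (4853 reads) and 0.117 RPKM with it (25 reads). The other stranded values were 0.0647 RPKM (TCPOBOP, 6 h), 0.0560 RPKM (PCN, 3 h) and 0.0286 RPKM (PCN, 6 h). In nuclear RNA it had 25.6 RPKM after PCN, 49.3, 61.2 and 57.9 RPKM in the female pools, and 88.9, 160 and 66.1 RPKM in the male pools. Every male pool lay above every female pool, and male pool 2 stood well above the other 2 male pools. The ratio of this lncRNA's RPKM to that of ncRNA_as_chr3_2485 was 0.110 to 0.156 in the other unstranded libraries, and 0.245, 0.553 and 0.167 in male pools 1, 2 and 3.

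The plus-strand intergenic lncRNA at the fibrinogen locus was seen without strand information and had no read with it. ncRNA_inter_chr3_2487 had 0 reads in each of the 4 stranded libraries. Without strand it had 55.8 RPKM in whole liver, 44.0 RPKM in the PCN nuclear library, 56.5, 42.1 and 41.4 RPKM in the female pools, and 26.4, 29.1 and 28.5 RPKM in the male pools. The 3 male pools were the lowest of the 8, and the whole-liver library lay within the range of the female nuclear pools. ncRNA_inter_chr3_2486, which overlaps it on the other strand, had 0.106 to 0.207 RPKM in the stranded libraries and 0.186 to 0.468 RPKM in the unstranded ones.

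The intergenic neighbour of the Ttr antisense lncRNA was much less abundant. ncRNA_inter_chr18_14331 had 0.139, 0.0641, 0.208 and 0 RPKM in the stranded libraries (TCPOBOP at 3 h and 6 h, PCN at 3 h and 6 h), which are 2, 1, 3 and 0 reads. Without strand it had 0.576 RPKM in whole liver, 0.814 RPKM in the PCN nuclear library, 1.21, 1.17 and 1.48 RPKM in the female pools, and 2.01, 2.93 and 3.75 RPKM in the male pools. The male pools were the highest and did not overlap with the female pools. These values rest on 10 to 25 reads each.

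**Figure D2:**
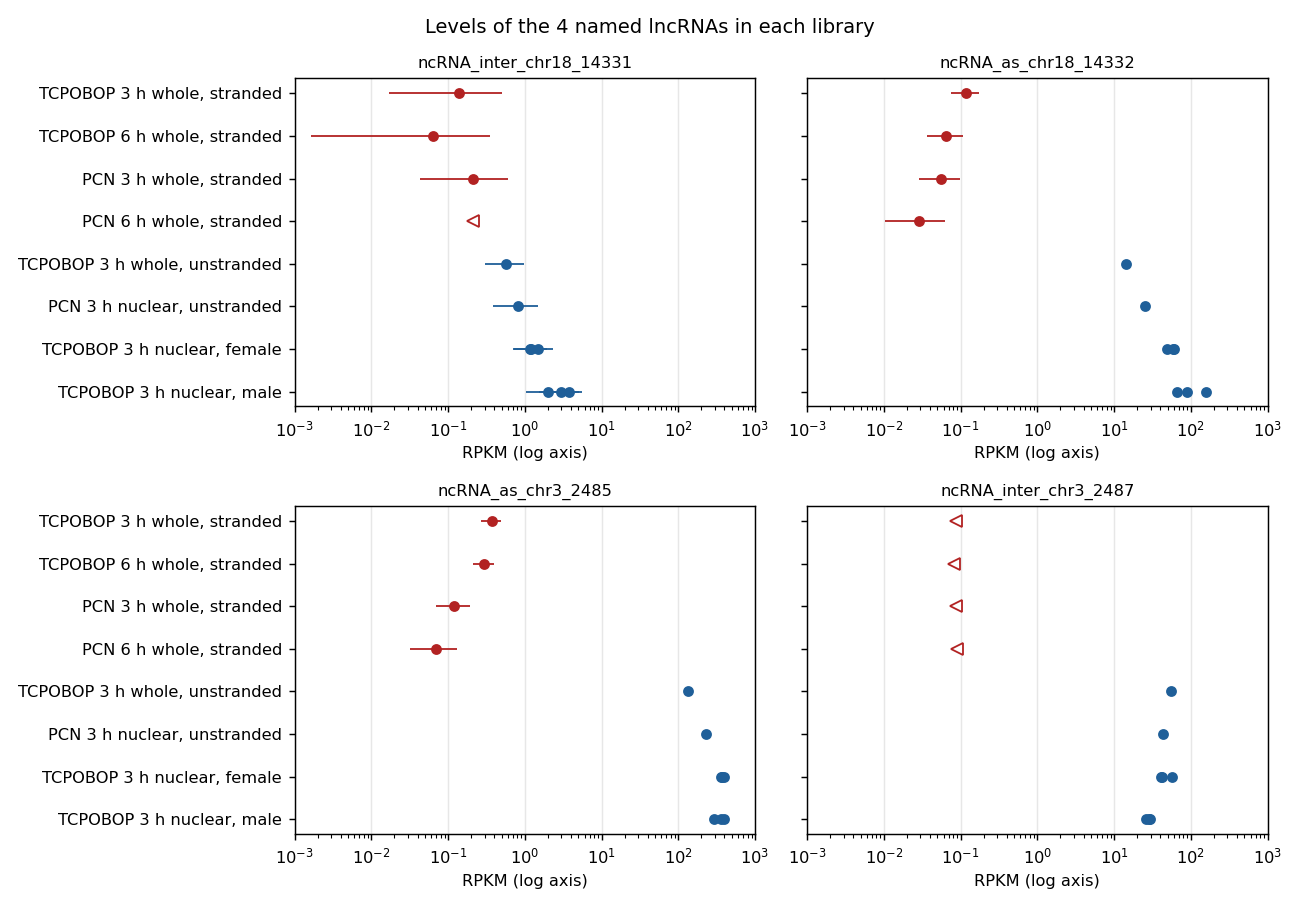
RPKM (log axis) of the 4 lncRNAs with a mean of at least 1 RPKM, 1 panel each, in every library by group. Points are libraries, with 95% Poisson intervals on the reads where they are wider than the point. Open triangles mark a library with 0 reads, placed at the level of 3 reads. The unstranded values of both antisense lncRNAs and of ncRNA_inter_chr3_2487 lie far to the right of the stranded ones, while those of ncRNA_inter_chr18_14331 lie closer.

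Libraries with and without strand were set side by side in whole liver 3 h after TCPOBOP, where there was 1 of each. The unstranded level was 358 times the stranded level for ncRNA_as_chr3_2485, 124 times for ncRNA_as_chr18_14332 and 4.15 times for ncRNA_inter_chr18_14331. For ncRNA_inter_chr3_2487 it was at least 636.5 times, against the floor of 3 reads in the stranded library. The 4 members with at least 0.5 RPKM in either library were all at least 2-fold higher without strand, on the log2(RPKM + 0.1) scale. Of all 1933 lncRNAs with such a level, 77.2% were, including 81.6% of the 614 antisense ones and 77.3% of the intergenic ones. A further 11.5% of the 1933 were at least 2-fold higher in the stranded library. The median log2 difference was 7.11 for the 4 members and 2.24 for all. All 4 members reached 0.5 RPKM only in the unstranded library, and the loci were chosen on this contrast. That the members were higher without strand therefore follows from the selection. With each library scaled to the same lncRNA total the median over all was 0.44, the counts higher and lower without strand went from 1493 and 223 to 1029 and 797, and 3 of the 4 members were still at least 2-fold higher, ncRNA_inter_chr18_14331 being at 0.46.

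Among the 614 antisense lncRNAs, 9 lay at least as far apart as ncRNA_as_chr3_2485, itself included, and 34 at least as far as ncRNA_as_chr18_14332. Among all 1933, 6 lay at least as far apart as ncRNA_inter_chr3_2487 and 1321 as ncRNA_inter_chr18_14331, which was closer than most. In these unstranded libraries, reads of a lncRNA and of a gene on the other strand cannot be told apart where the 2 overlap. In windows around 2 other plasma-protein loci, the counts of lncRNAs higher and lower without strand were 8 and 7 of 17 (Serpina1) and 5 and 1 of 8 (complement factor H).

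The members with few reads did not all lie on the same side. ncRNA_inter_chr3_2482, on the minus strand, had 2, 4, 2 and 0 reads in the stranded libraries (TCPOBOP at 3 h and 6 h, PCN at 3 h and 6 h) and 0 reads in each of the 8 unstranded ones. In whole liver 3 h after TCPOBOP, ncRNA_inter_chr18_14330 had 9 reads with strand and 2 without. ncRNA_inter_chr18_14328 had 0.146 RPKM with strand (27 reads) and 0.282 RPKM without (82 reads). Of the 7 plus-strand lncRNAs that lie before the antisense one at the Ttr locus, 2 had the higher level without strand and 5 with it. Summed over those 7, a sum chosen after the values were seen, the pair held 2.41 RPM (reads scaled by library depth alone) with strand, from 62 reads, and 2.83 RPM without, from 114 reads.

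**Figure D3:**
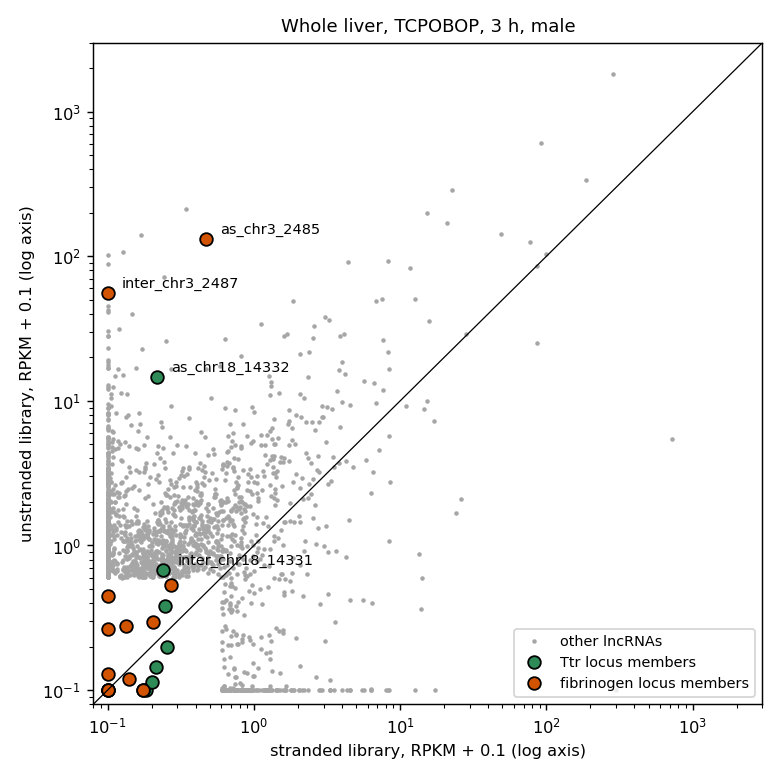
RPKM + 0.1 in the unstranded against the stranded whole-liver library of TCPOBOP-treated males at 3 h (both axes log) for lncRNAs with at least 0.5 RPKM in either library and all members of both loci. The diagonal marks equal levels. The antisense lncRNAs and ncRNA_inter_chr3_2487 lie far above the diagonal, and the members with few reads lie on both sides of it.

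Nuclear and whole-liver RNA were compared without strand in TCPOBOP-treated males at 3 h. The 3 nuclear pools came from experiment G95 and the whole-liver library from G81, so compartment and experiment cannot be told apart. The mean nuclear level was 2.64 times the whole-liver level for ncRNA_as_chr3_2485 (349 ± 54.6 RPKM, SD, n = 3, against 132). For ncRNA_as_chr18_14332 it was 7.25 times (105 ± 48.7 RPKM, SD, n = 3, against 14.5). For ncRNA_inter_chr18_14331 it was 5.03 times (2.90 ± 0.873 RPKM, SD, n = 3, against 0.576). Each nuclear pool was above the whole-liver value for these 3.

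ncRNA_inter_chr3_2487 went the other way, at 28.0 ± 1.43 RPKM in nuclei (SD, n = 3) against 55.8 in whole liver, a ratio of 0.502. Its 3 nuclear pools were all below the whole-liver value, and on the log2 scale it just missed the 2-fold limit. So the abundant entries of the fibrinogen locus differed in opposite directions between the G95 male nuclear pools and the G81 whole-liver library. In the other nuclear libraries ncRNA_inter_chr3_2487 was nearer the whole-liver value, at 44.0 RPKM (PCN, G81) and 41.4 to 56.5 RPKM (female pools). In the G81 PCN nuclear library ncRNA_inter_chr18_14328 had 0.240 RPKM, below its 0.282 in whole liver. There ncRNA_as_chr18_14332 (25.6 RPKM) and ncRNA_inter_chr18_14331 (0.814 RPKM) were above their whole-liver values. ncRNA_inter_chr18_14330 and ncRNA_inter_chr18_14328, with 0.971 and 0.853 RPKM in nuclei, were 68.5 and 3.02 times their whole-liver levels, the first against 2 reads. Of the 7 members with at least 0.5 RPKM on either side, 5 were at least 2-fold higher in nuclei and 0 lower. Among them ncRNA_inter_chr18_14328, ncRNA_inter_chr18_14330 and ncRNA_inter_chr3_2481 reached 0.5 RPKM only in nuclei, so this limit let them in through their higher side. The loci were also chosen on this contrast, so the count is a description. Of all 2456 lncRNAs, 31.7% were higher in nuclei (46.4% of the antisense and 22.9% of the intergenic ones) and 18.2% lower. All 4 Ttr-locus members among the 7 were higher, and 1 of the 3 fibrinogen-locus members was. In the Serpina1 window 17 of 21 lncRNAs were higher in nuclei and 0 lower. In the complement factor H window these were 7 of 11 and 0, so a higher nuclear level was not particular to the loci described here. With each library scaled to the same lncRNA total, all lncRNAs higher and lower in nuclei went from 779 and 447 to 443 and 577, and 3 members were at least 2-fold higher and 1 lower. There ncRNA_as_chr3_2485 was at 0.97 and ncRNA_inter_chr3_2487 at -1.41 on the log2 scale. ncRNA_inter_chr3_2487 also passed the limit as lower without male pool 2 (-1.02) and without male pool 3 (-1.01).

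Female and male nuclei 3 h after TCPOBOP differed at the Ttr locus, where 3 intergenic lncRNAs were lower in females, and at the fibrinogen locus, where ncRNA_inter_chr3_2487 was higher. Sex and experiment (G86 and G95) cannot be told apart in this comparison. The pools are unstranded, so reads of a lncRNA and of a gene on the other strand cannot be told apart where they overlap. Of the 21 lncRNAs, 16 passed the filter on low values, 8 at each locus, and 4 of the 16 were called by limma with Benjamini-Hochberg adjustment over 5951 lncRNAs, of which 8.79% were called. Of the 4, 1 was higher in females, as were 3.92% of all lncRNAs tested, and 3 were higher in males, as were 4.87%. The groups did not overlap for 8 of the 16, against 31.3% of all lncRNAs tested. The males were above the females in 6 of these 8 (19.6% of all) and below in 2 (11.7%). The sign of the median log2 difference, female minus male, differed between the loci. It was -1.11 over 8 Ttr-locus lncRNAs, 0.33 over 8 fibrinogen-locus lncRNAs and -0.09 over all. At the fibrinogen locus ncRNA_inter_chr3_2478, ncRNA_inter_chr3_2480, ncRNA_inter_chr3_2483 and ncRNA_inter_chr3_2484 had only 1 to 6 reads in each male pool. The Ttr-locus lncRNAs tested lie 114 to 1763 bases apart, so they may not be separate observations. An unadjusted limma p under 0.05 was found for 7 of 8 at the Ttr locus and 2 of 8 at the fibrinogen locus.

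The values of ncRNA_inter_chr18_14330 were 0.126, 0.384 and 0.263 RPKM in the female pools and 0.910, 0.898 and 1.11 RPKM in the male pools. Every male pool was above every female pool. Its log2 difference was -1.65 (SE 0.31, limma adjusted p = 0.0190, n = 3 and 3). ncRNA_inter_chr18_14328 had 0.310, 0.399 and 0.285 RPKM in the female pools and 0.740, 0.853 and 0.967 RPKM in the male pools, again without overlap. Its log2 difference was -1.15 (SE 0.22, limma adjusted p = 0.0211). ncRNA_inter_chr18_14331, whose values are given above, differed by -1.07 (SE 0.25, limma adjusted p = 0.0378).

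The experiment G81 held 2 other unstranded male libraries, the PCN nuclear one and the TCPOBOP whole-liver one, and in these 3 lncRNAs they lay below the male pools. ncRNA_inter_chr18_14328 had 0.240 and 0.282 RPKM there, ncRNA_inter_chr18_14330 had 0.0391 and 0.0142 RPKM, and ncRNA_inter_chr18_14331 had 0.814 and 0.576 RPKM. All 6 values were below the lowest female pool of the same lncRNA. For ncRNA_inter_chr18_14328 in whole liver the gap was slight, 0.282 against 0.285 RPKM, and the values of ncRNA_inter_chr18_14330 rest on 3 and 2 reads. These libraries also differ from the female pools in agonist or in compartment. ncRNA_inter_chr3_2487 had 44.0 and 55.8 RPKM in those male libraries, within the range of the female pools.

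At the fibrinogen locus ncRNA_inter_chr3_2487 was higher in females by 0.72 on the log2 scale (SE 0.17, limma adjusted p = 0.0411). Its levels were 46.7 ± 8.53 RPKM in females and 28.0 ± 1.43 RPKM in males (SD, n = 3 each). It had 0 reads in each of the 4 stranded libraries, all from male whole liver. The strand of its reads in these unstranded pools is not known. ncRNA_as_chr3_2485 differed by 0.11 (SE 0.19, limma adjusted p = 0.747), with 374 ± 17.0 RPKM in females and 349 ± 54.6 RPKM in males (SD, n = 3 each). ncRNA_as_chr18_14332 did not pass either, at -0.81 (SE 0.31, limma adjusted p = 0.149), with no overlap between the groups. ncRNA_inter_chr3_2481 had 1.17, 1.75 and 1.02 RPKM in the female pools and 0.669, 0.109 and 0.834 RPKM in the male pools. Its groups did not overlap either, and its log2 difference of 1.38 (SE 0.54, limma adjusted p = 0.158) missed the threshold.

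None of the 4 calls held with each pool left out in turn. Without female pool 1, and without female pool 3, 0 of the 4 were called, and without male pool 3 none of the 4 was either, while ncRNA_inter_chr18_14325 was. ncRNA_inter_chr3_2487 lost its call whichever pool was left out (limma adjusted p 0.0704 to 0.115). ncRNA_inter_chr18_14331 kept its call only without male pool 1 (0.0239). ncRNA_inter_chr18_14328 kept its call without female pool 2 (0.0448), male pool 1 (0.0425) and male pool 2 (0.0482), and ncRNA_inter_chr18_14330 without female pool 2 (0.0250) and male pool 2 (0.0439). Their log2 differences kept the sign in each of these fits.

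**Figure D4:**
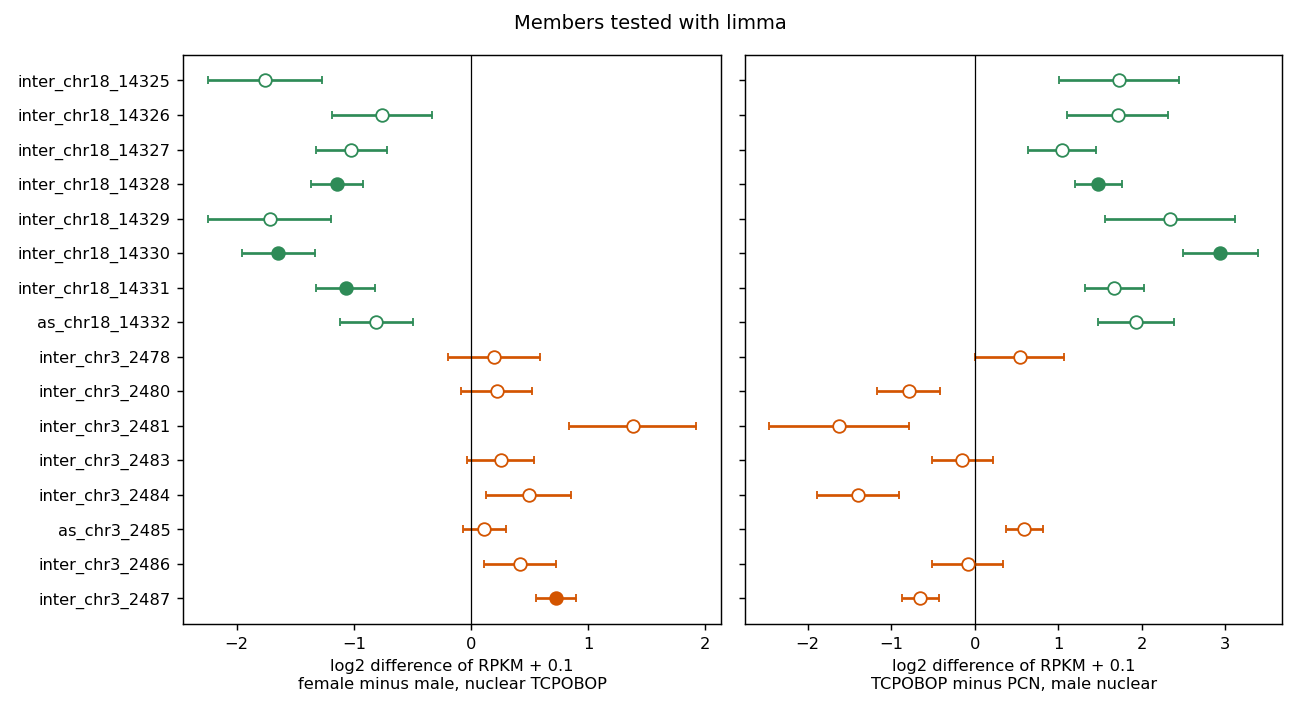
log2 differences of RPKM + 0.1 with standard errors for the 16 lncRNAs tested, female minus male in nuclear TCPOBOP libraries (left) and TCPOBOP minus PCN in male nuclear libraries (right). Filled points had a limma adjusted p under 0.05. The Ttr-locus lncRNAs (upper 8) lie left of 0 in the first comparison and right of 0 in the second, and both comparisons use the same 3 male pools.

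TCPOBOP and PCN were compared in male nuclei at 3 h, with 3 TCPOBOP pools from experiment G95 and 1 PCN library from G81. Agonist and experiment cannot be told apart, and the 3 male pools are the same as in the comparison of the sexes. These libraries are unstranded as well, with the same limit on strand. At the Ttr locus 2 intergenic lncRNAs were higher with TCPOBOP, and no lncRNA of the fibrinogen locus was called. The count was 2 of 16 tested, and 4.27% of 7401 lncRNAs were called, 2.86% higher with TCPOBOP and 1.41% higher with PCN. Values did not overlap for 14 of the 16, against 56.2% of all. The TCPOBOP pools were above the PCN library in 10 of these (36.0% of all) and below it in 4 (20.2%). The median log2 difference, TCPOBOP minus PCN, was 1.72 over 8 Ttr-locus lncRNAs, -0.40 over 8 fibrinogen-locus lncRNAs and 0.25 over all. The limits given above, few reads at the fibrinogen locus and close neighbours at the Ttr locus, hold for these medians too.

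ncRNA_inter_chr18_14330 differed by 2.94 (SE 0.45, limma adjusted p = 0.0262), with 0.0391 RPKM after PCN (3 reads). ncRNA_inter_chr18_14328 differed by 1.48 (SE 0.28, limma adjusted p = 0.0441), with 0.240 RPKM after PCN (38 reads). Without male pool 3, and without male pool 1, both lost their call (adjusted p 0.0697 to 0.0907), as did ncRNA_inter_chr18_14328 without male pool 2 (0.0643). The fit assumes that the single PCN library varies like the replicated pools. With the 8 libraries brought to equal medians, 1 of the 16 was called.

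The antisense lncRNAs were higher with TCPOBOP in value and did not pass. ncRNA_as_chr18_14332 differed by 1.93 (SE 0.46, limma adjusted p = 0.0712), with each TCPOBOP pool above the PCN library. It was called without male pool 2, its highest library, where the difference was 1.58. ncRNA_as_chr3_2485 differed by 0.59 (SE 0.22, limma adjusted p = 0.188), also with no overlap. ncRNA_inter_chr3_2487 had the opposite sign, -0.65 (SE 0.22, limma adjusted p = 0.151), with 44.0 RPKM after PCN and at most 29.1 RPKM in a TCPOBOP pool.

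In stranded whole liver each agonist and time had 1 library, so there is no test. None of the 21 reached 0.5 RPKM in any stranded library, the level set for these pairs. Of the 475 lncRNAs that reached it in both agonist pairs, 2.11% had at least 2-fold more with TCPOBOP than with PCN at both times, and 1.05% had at least 2-fold less. Of the 506 that reached it in both time pairs, 4.55% were at least 2-fold lower at 6 h with both agonists and 2.17% higher. With a minimum of 10 reads in the higher library of each pair and the plain ratio of RPKM instead, a rule added after the data had been seen, 4 of the 21 entered. The 2 antisense lncRNAs were then at least 2-fold higher with TCPOBOP at both times, as were 2.75% of 1490 lncRNAs, and 1.01% were higher with PCN.

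ncRNA_as_chr3_2485 had 49 and 16 reads at 3 h (TCPOBOP and PCN) and 42 and 9 reads at 6 h. The ratio of the levels was 3.06 (95% interval 1.71 to 5.77) at 3 h and 4.22 (2.02 to 9.85) at 6 h. ncRNA_as_chr18_14332 had 25 and 12 reads at 3 h and 15 and 6 reads at 6 h. Its ratios were 2.08 (1.01 to 4.55) and 2.26 (0.828 to 7.11), and the second interval includes equal levels. With 1 library for each agonist and time, all these intervals cover counting error only and do not test the agonists. The median ratio over all lncRNAs with enough reads was 1.11 at 3 h and 1.04 at 6 h.

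From 3 h to 6 h, 1 of 5 members with enough reads by that added rule was at least 2-fold lower with both agonists, against 6.19% of 1535 lncRNAs, and 0 were higher, against 2.61%. This was ncRNA_inter_chr18_14328, with 27 and 5 reads after TCPOBOP and 12 and 3 reads after PCN. Its ratio of 6 h to 3 h was 0.171 (0.0514 to 0.450) with TCPOBOP and 0.255 (0.0462 to 0.946) with PCN. Summed over the 7 plus-strand lncRNAs before the antisense one, the reads were 62 and 11 with TCPOBOP and 33 and 12 with PCN. The ratios of RPM were 0.164 (0.0778 to 0.314) and 0.371 (0.175 to 0.738), where the medians over all lncRNAs were 0.793 and 0.885. This sum was chosen after the values were seen, and ncRNA_inter_chr18_14328 gave 27 of its 62 reads. With PCN ncRNA_inter_chr18_14327 went the other way, from 0 reads at 3 h to 5 at 6 h. Each ratio rests on 1 library a side. The hour of the day went with the time after injection, 11 AM and 2 PM.

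The same sum in the unstranded libraries was 2.83 RPM in whole liver and 2.83 RPM in the PCN nuclear library. It was 3.96, 6.29 and 4.29 in the female pools and 12.5, 13.5 and 16.1 in the male pools. Both G81 libraries lay below all 3 female pools, and the G95 male pools lay above them, without overlap.

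**Figure D5:**
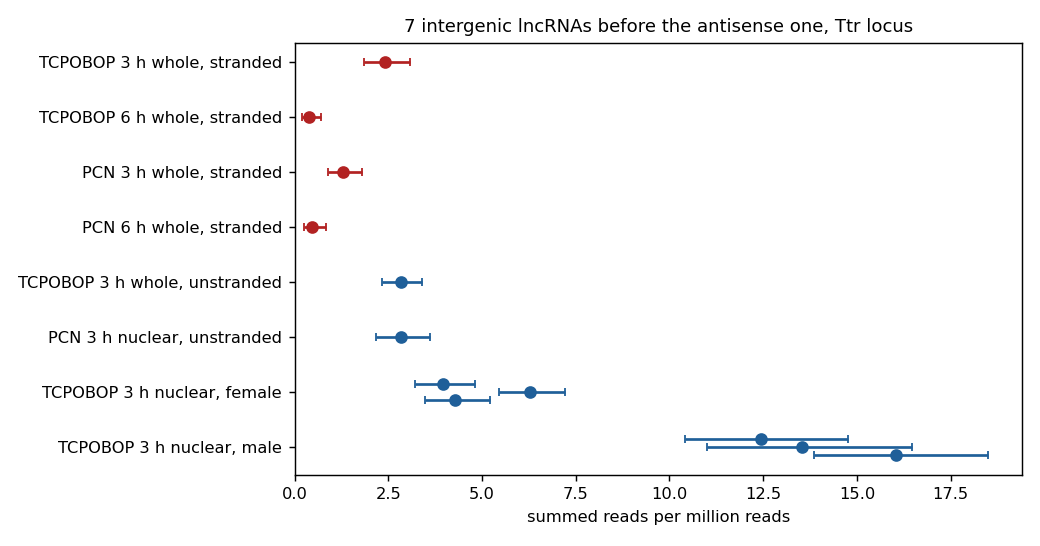
Summed RPM of the 7 intergenic lncRNAs that lie before the antisense one at the Ttr locus, in each library by group, with 95% Poisson intervals. The 6 h stranded libraries (0.395 and 0.477) lie below the 3 h ones (2.41 and 1.28), and the 3 male nuclear TCPOBOP pools (12.5 to 16.1) lie above every other library.

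The patterns most like those of the antisense lncRNAs were sought among 858 lncRNAs outside both loci with a mean of at least 1 RPKM, as Pearson's r of log2(RPKM + 0.1) over the 12 libraries. For ncRNA_as_chr3_2485 they were the antisense ncRNA_as_chr6_5608 (r = 0.998), ncRNA_as_chr9_8346 (0.997) and ncRNA_as_chr5_4275 (0.997). For ncRNA_as_chr18_14332 they were the antisense ncRNA_as_chr3_2474 (r = 0.998), ncRNA_as_chr7_6378 (0.997) and ncRNA_as_chr6_5271 (0.997). These 12 points fall into stranded and unstranded libraries, and 531 and 545 of the 858 reached r = 0.9. Over the 8 unstranded libraries alone, r was 0.924 to 0.939 for the first 3 and 0.936 to 0.974 for the second 3. The points share depth and experiment within groups, so r is given as a description.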

How the data were processed

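The authors deposited 1 table of RPKM values for 15558 lncRNAs, with RPKM headers on a sheet named for FPKM. Reads were aligned with TopHat2 to mm9, per the submitters' processing notes. The sources used here do not state the aligner's version, the counting tool, its strand setting or the annotation source. Of 25 value columns, 12 matched a library's labels and 13 were not used here. Members and gene lists were chosen with earlier results of these data known.

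The values step in whole reads. Recovering each library's total and each lncRNA's length made 100% of 89242 values above 0 whole within 1e-06 of a read. For 9844 of 12497 lncRNAs above 0 the length was the span. For the others the shortest length that made the values whole was searched for, so for them the 100% is no check. RPKM were tested with limma 3.58.1 (R 4.3.3) on log2(RPKM + 0.1), with a trend and Benjamini-Hochberg adjustment, a scale that understates changes of low lncRNAs. The sex fit kept RPKM of at least 0.1 in 3 of 6 pools, the agonist fit in 2 of 8 libraries. The labels do not say how animals were assigned to pools, so p-values measure only the spread between these pools. The script was run on simulated data with normal noise and large shifts, without counting error, so that run does not bear on calls from few reads. Members with a mean of at least 1 RPKM over the unstranded or the stranded libraries are named in full. Others are named where a count or a call is small and were then chosen after their values were seen. Alternatives were another pseudocount, filter, scaling, read-based limma-voom, the pool number as a block, and leaving out each pool.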

Additional observations from a re-analysis of the deposited data

Results flagged for a closer look

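Between the stranded whole-liver libraries, 2 minus-strand intergenic lncRNAs of the fibrinogen locus went in opposite directions at the 2 times. ncRNA_inter_chr3_2481 had 11 and 14 reads at 3 h (TCPOBOP and PCN) and 15 and 9 reads at 6 h. Its log2 difference, TCPOBOP minus PCN, was -0.23 at 3 h and 0.38 at 6 h, which are -0.604 apart. ncRNA_inter_chr3_2486 had 8 and 13 reads at 3 h and 17 and 10 reads at 6 h, with differences of -0.40 and 0.39, which are -0.790 apart. Seen across time, the same libraries give 6 h minus 3 h differences that are 0.604 and 0.790 apart between TCPOBOP and PCN. With 1 library for each agonist and time the difference was not tested. The 95% intervals of all ratios behind it include equal levels.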

How the results depend on the processing

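No call among the members held under every alternative. In the sex comparison 4 members and 523 lncRNAs were called. With no filter they were 2 and 334, and with a mean RPKM of at least 1 they were 2 and 239. Leaving out 1 pool at a time gave 0 to 3 members and 159 to 367 lncRNAs. With the pool number as a replicate block 1 member and 287 lncRNAs were called, but the numbers name different animals, and pools with the same number did not deviate together (r = -0.0176, -0.0742 and -0.000223). Uncalled log2 differences near 0 turned sign with 1 pool left out: ncRNA_inter_chr3_2478 ranged from -0.01 (without female pool 1) to 0.572, and ncRNA_as_chr3_2485 from -0.016 (without male pool 2) to 0.211.

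In the nuclear agonist comparison 2 members and 316 lncRNAs were called. All lncRNAs called rose to 531 with a pseudocount of 0.01 and to 563 with no filter. The members called were 1 with equal medians and 5 with limma-voom on recovered reads (460 lncRNAs, against 724 and 6 members between the sexes). The fit of the 4 libraries alone called 1 member and 157 lncRNAs, and leaving out 1 pool gave 0 to 2 members and 127 to 328 lncRNAs. With 1 pool left out, ncRNA_inter_chr3_2486 ranged from -0.364 to 0.103 (without male pool 2; 0.002 without male pool 3) and ncRNA_inter_chr3_2483 from -0.234 to 0.014 (without male pool 3). The cause of these shifts was not tested.

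Between nuclei and whole liver, 5 members were 2-fold higher and 0 lower. These were 3 and 0 with a pseudocount of 1, and 3 and 1 with equal lncRNA totals, which moved the median log2 difference over all lncRNAs from 0.44 to -0.15. Leaving out 1 pool gave 5 to 7 members apart in either direction, with 6 higher and 1 lower without male pool 2 and without male pool 3. Between strand protocols, 3 of 4 members stayed 2-fold higher with a pseudocount of 1 or equal lncRNA totals. In the stranded pairs the rule on 10 reads, chosen after seeing the data, gave 2 members by agonist and 1 by time, where the level of 0.5 RPKM gave 0. Most members rest on fewer than 30 reads in every stranded library, so small differences are not detectable there.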
